A study of Mus musculus with 24 samples.

Results

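Among 21974 protein-coding genes in the count table of mouse oocytes and embryos, 45 had mRNAs that were abundant in the MII oocyte, held a similar level in the late 1-cell (L1C) embryo, and had fallen at least 16-fold in the late 2-cell (L2C) embryo. The members were chosen on the input (RNA-seq) libraries. A member had a mean of at least 50 CPM (counts per 1e+06 counts of the library) at MII, a ratio of L1C to MII between 0.67 and 1.5, and an L2C level of at most 1/16 of MII. Of the 3219 protein-coding genes at or over the MII minimum, 1429 were level to L1C, and 45 of these (3.15%) met the last limit. The input levels are therefore a description here, given without a test.

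The study profiled m6A, the most common internal modification of mRNA, by SLIM-seq, an m6A immunoprecipitation (IP) method for small samples, across the maternal-to-zygotic transition. MII oocytes came from superovulated 8-week-old B6D2F1 females and were collected 14 to 16 h after hCG. L1C and L2C embryos came from matings with B6D2F1 males, were cultured in KSOM and were collected at 27 to 29 h and 48 to 50 h. Each stage had 3 IP and 3 input libraries. A second experiment compared L2C embryos whose zygotes had received Cas13d mRNA with 3 crRNAs against Ythdc1 (KD) with embryos given Cas13d mRNA alone (NC), with 3 libraries each. Ythdc1 encodes a nuclear reader of m6A. Neither experiment deleted a gene: the knockdown acts on RNA, and both arms carried Cas13d. Only KD embryos received crRNA, so effects of less Ythdc1 and of the injected crRNAs cannot be told apart. Nothing in the labels says that replicates came from separate sets of animals, so p-values measure the spread between libraries, which may be technical. The labels give the RNA as polyA RNA. How far poly(A) tail length entered the levels was not tested.

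A growing oocyte makes and stores mRNAs that carry it through meiosis and fertilization, when its genome is silent. These mRNAs are removed in successive waves. The earlier is driven by maternal factors and starts at meiotic maturation, and the later needs transcription from the new embryonic genome. Shortening of the poly(A) tail, uridylation of short tails and loss of protective RNA-binding proteins take part in this decay.

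Oocyte marker transcripts were high in every MII input, with a summed level of 8433 to 9258 CPM for 8 genes, and fell to 1990 to 2087 CPM at L2C. Late 2-cell transcripts rose from 28.7 to 34.1 CPM at MII to 535 to 713 CPM at L2C. Cumulus cell markers summed to 20.7 to 22.1 CPM at MII, 11.7 to 12.0 at L1C and 267 to 283 at L2C, and sperm markers to at most 2.8 CPM before L2C and 57.4 to 77.5 at L2C. The inputs held 1.86e+07 to 3.82e+07 estimated counts and the IPs 1.11e+07 to 3.97e+07. Levels are shares of a library, so that fewer mRNA copies per embryo and more of all other RNA cannot be told apart.

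The most abundant member was E330021D16Rik (chr6:136400317-136415569, minus strand, GRCm38, as for all positions), at 3938.2, 4377.8 and 4629.7 CPM in the MII inputs, 3853.8, 4031.7 and 3586.6 at L1C, then 178.0, 154.2 and 175.7 at L2C. Its MII and L1C libraries overlapped and its L2C libraries stood far below both. Oas1e, of the oligoadenylate synthetase family (chr5:120786226-120795530, minus strand), had 3681.0, 2693.4 and 2519.7 CPM at MII, 1989.3, 1756.2 and 2383.8 at L1C, then 31.5, 41.3 and 36.7 at L2C. Its L1C libraries all lay under its MII libraries, close to the lower limit of the rule, and its fall to L2C was the largest of the 44 members with a level above 0 there, 81.2-fold. Nlrp4f, a member of the NLR family expressed in oocytes, moved the other way before its loss. It had 2389.5, 2378.1 and 2294.6 CPM at MII, 3785.0, 3011.6 and 2543.7 at L1C, then 71.3, 49.1 and 69.2 at L2C.

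Rraga (chr4:86575668-86577285, plus strand) encodes a Rag GTPase that relays amino acid supply to mTORC1. Its input levels were 904.7, 1048.9 and 1224.5 CPM at MII, 698.5, 751.6 and 717.8 at L1C, then 35.8, 36.9 and 40.2 at L2C. Per length of the gene it was the most abundant member, with 6452 TPM at MII, which placed it 9th of all protein-coding genes on that scale. TPM here divides by the whole gene, introns included, which favours a compact gene. Oas1e followed at 2713 TPM and E330021D16Rik at 2372 TPM.

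Over the 45 members the MII level ranged from 57.1 to 4315 CPM, with a median of 286 CPM. The L2C level ranged from 0 to 169 CPM, with a median of 12.6 CPM and a median of 4.38% of the MII level. Together the members made up 2.38% to 2.47% of each MII input, 2.06% to 2.48% of each L1C input and 0.0749% to 0.0903% of each L2C input. The ratio of L1C to MII had a median of 0.93. It was under 0.8 in 11 members, among them Dazl, Nit2, Rraga and Oas1e, and over 1.2 in 4, which were Tceal8, Wdr76, Nlrp4f and Zc3h6.

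**Figure D1:**
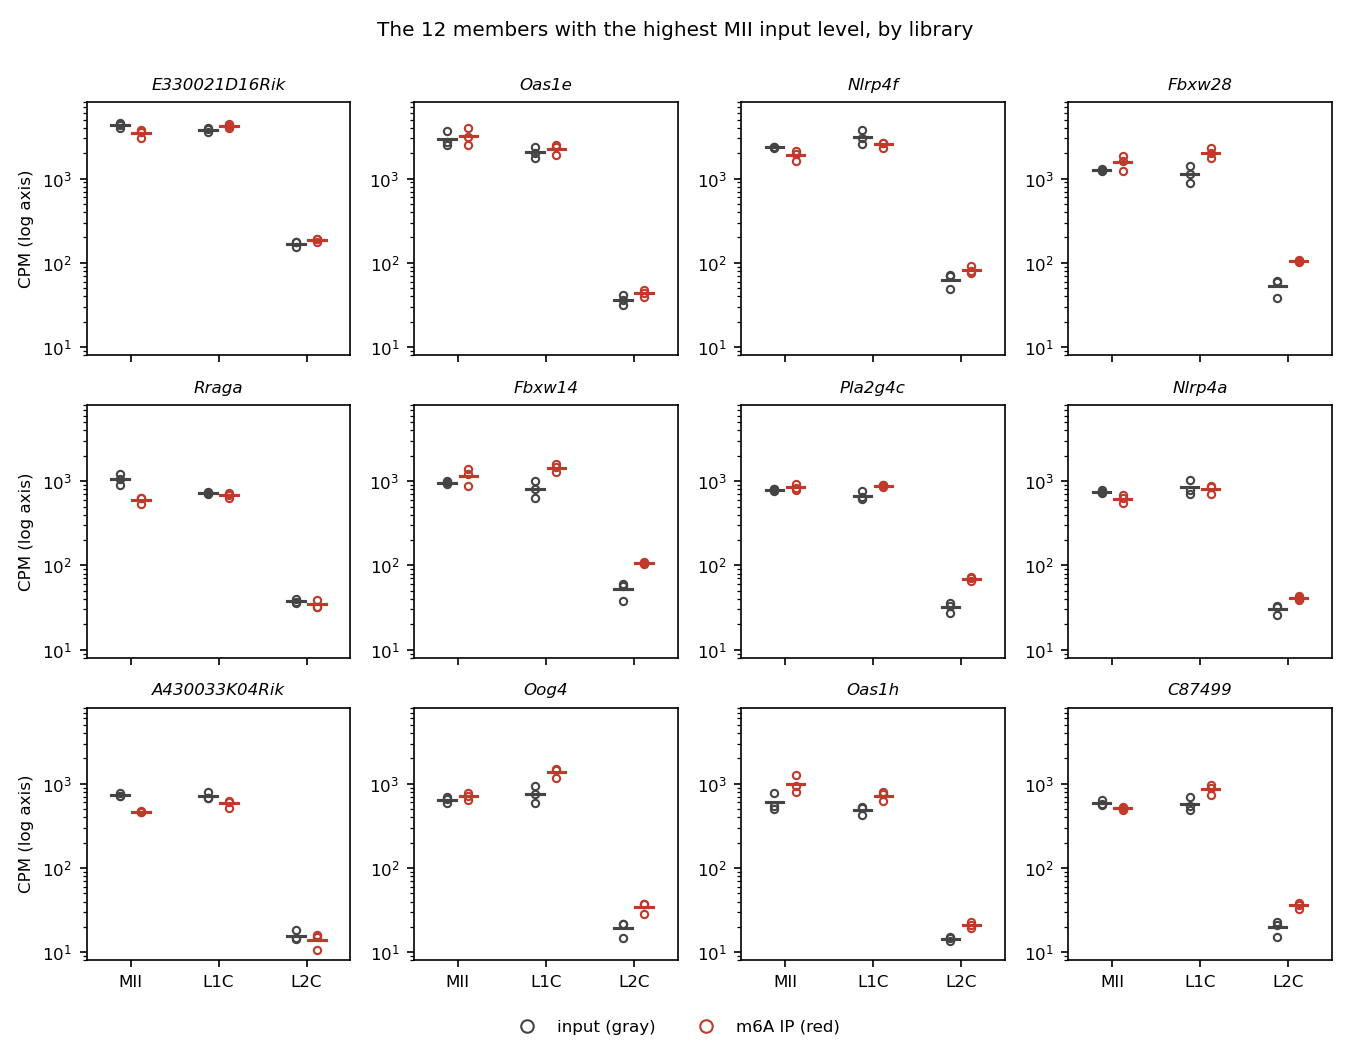
Level in CPM (log axis) of the 12 members with the highest MII input level in each input (gray) and IP (red) library of MII oocytes, L1C and L2C embryos, with a bar at the mean of 3 libraries. MII and L1C libraries lie close together and L2C libraries far below, for E330021D16Rik at 154.2 to 178.0 CPM in inputs.

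The condition of a similar level up to L1C held only within its limits. The 3 MII and 3 L1C inputs overlapped in 27 members. All L1C inputs lay below all MII inputs in 15 members, where 23.8% of the 21950 genes tested did so, and above them in 3, where 34.7% did. When members were chosen on the libraries of 2 replicate numbers and read in the libraries of the number left out, the L1C/MII ratio was within the limits in 35 of 49, 41 of 47 and 37 of 45 genes. L2C was at most 1/16 of MII in 43 of 49, 41 of 47 and 39 of 45 of these genes, and at most 1/8 in all of them. Libraries of the same number are not known to be matched and may be technical replicates. These counts are a description and no independent check.

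The limit of 1/16 lay within a continuous range. Of the 1429 genes level to L1C, 775 were at or under 1/2 of MII at L2C, 399 under 1/4, 177 under 1/8, 45 under 1/16 and 8 under 1/32, and the median was 45.4% of MII. Cept1 (16.1-fold), Nit2 (16.3-fold) and Chdh (16.7-fold) were just inside. Rgs12 (15.8-fold), Riok1 (15.7-fold) and Apeh (15.5-fold) were just outside. The steepest falls after Oas1e were those of Glrx (64.7-fold), a glutaredoxin that reduces protein disulfides, A430033K04Rik (46.4-fold) and Oas1h (41.8-fold). Nlrp4f (37.2-fold), Nlrp4b (36.1-fold) and the oogenesin Oog4 (32.8-fold) came next. Dnah8, an axonemal dynein heavy chain, was listed at 0 in all L2C inputs and IPs, which can be a failed estimate, and its membership rests on these values. Exon counts of the second experiment gave it 13.7 to 15.8 CPM in NC embryos of the same stage, and no fold is given for it.

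Gene families of the oocyte made up 11 of the 45. The F-box and WD40 proteins of the Fbxw cluster on chromosome 9, substrate receptors of SCF ubiquitin ligases, had 4 members among 12 genes over the minimum: Fbxw28 at 1253 ± 29.4 CPM at MII (SD, n = 3), Fbxw14 at 958 ± 39, Fbxw20 at 318 ± 8.72 and Fbxw22 at 279 ± 2.45. The Nlrp4 genes had 3 of 4 (Nlrp4f, Nlrp4a and Nlrp4b), the Nlrp9 genes 1 of 3 (Nlrp9b), the Oas1 genes 2 of 4 (Oas1e and Oas1h) and the Oog genes 1 of 4 (Oog4). Some paralogs missed the rule by little. Oas1d fell to 4.68% of MII but had an L1C/MII ratio of 0.64, Oas1c fell to 5.15% after a ratio of 1.59. Nlrp4g, at a ratio of 1.10 and 6.06% of MII, met each numeric limit but is annotated as a transcribed pseudogene, so it was no member. Others of the same families did not come near it, such as Nlrp4e at 11.8%, Oog3 at 106% and Nlrp9c at 35.2% of MII. Reads of near-identical paralogs can be divided between genes by the counting, so that values of single Fbxw, Nlrp4, Oas1 and Oog genes are uncertain.

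Of all protein-coding genes over the MII minimum 1.40% were members. The list of the subcortical maternal complex and oocyte Nlrp genes held 5 members of 14 genes over the minimum (Nlrp4f, Nlrp4a, Nlrp4b, Nlrp9b and Ooep), and the list of oocyte multigene families held 7 of 28. Poly(A) binding, storage and translation control held 1 of 9, Dazl, a germ-cell RNA-binding protein that promotes translation. Lists of M-phase (22 genes), decay (13), m6A machinery (11), zona and secreted factors (12), chromatin (19) and egg activation calcium (5) held none, where lists of these sizes would hold few at the share over all genes. The other named roles were scattered. They included phospholipase Pla2g4c, endocytic scaffold Itsn2, the RhoGAP Stard13, Chdh of choline oxidation, the omega-amidase Nit2, and Cept1, which makes phosphatidylcholine and phosphatidylethanolamine.

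Sequence was not used by the rule. RefSeq promoters (GRCm38.p6, 250 bases before to 50 after a start) matched 40 of the 45 members. In 20 of these 40 (50.0%), the promoter held CAGCTG, which has the letters of an E-box, the site of basic helix-loop-helix factors, and reads the same on both strands. The share was 15.9% in 421 genes kept at L2C (between 0.5 and 2 times MII), 24.0% in 75 genes cleared early (L1C at most 1/4 of MII), 20.2% in genes over the MII minimum and 17.7% in all 16513 protein-coding genes with a promoter. Within the last 100 bases before the start the share was 30% in members, 5.94% in kept genes and 6.30% in all. Promoters of paralogs share sequence. Outside the Fbxw, Nlrp, Oas1 and Oog families 12 of 31 members (38.7%) held the letters. They are given for the 6 most abundant members with a single start in the table and CAGCTG before it, as the 200 bases 5′ of the start with CAGCTG in capitals.

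E330021D16Rik (chr6:136415570-136415769, minus strand): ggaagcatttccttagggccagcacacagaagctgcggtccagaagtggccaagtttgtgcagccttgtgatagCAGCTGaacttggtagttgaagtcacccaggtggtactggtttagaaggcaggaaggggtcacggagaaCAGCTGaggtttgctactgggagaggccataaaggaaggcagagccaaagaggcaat
Fbxw28 (chr9:109339660-109339859, minus strand): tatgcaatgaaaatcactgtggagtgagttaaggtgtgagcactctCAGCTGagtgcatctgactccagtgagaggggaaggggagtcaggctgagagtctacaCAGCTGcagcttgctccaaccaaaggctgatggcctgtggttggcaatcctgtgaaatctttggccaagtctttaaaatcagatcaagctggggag
Fbxw14 (chr9:109287677-109287876, minus strand): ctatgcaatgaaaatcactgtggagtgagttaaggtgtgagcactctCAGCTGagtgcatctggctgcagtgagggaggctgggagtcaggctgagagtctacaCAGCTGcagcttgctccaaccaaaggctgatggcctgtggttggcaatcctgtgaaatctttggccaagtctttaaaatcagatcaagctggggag
A430033K04Rik (chr5:138622659-138622858, plus strand): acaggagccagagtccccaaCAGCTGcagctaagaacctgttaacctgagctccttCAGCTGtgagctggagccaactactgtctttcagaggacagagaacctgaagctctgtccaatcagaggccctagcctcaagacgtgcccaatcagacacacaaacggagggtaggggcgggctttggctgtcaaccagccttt
Oog4 (chr4:143450325-143450524, minus strand): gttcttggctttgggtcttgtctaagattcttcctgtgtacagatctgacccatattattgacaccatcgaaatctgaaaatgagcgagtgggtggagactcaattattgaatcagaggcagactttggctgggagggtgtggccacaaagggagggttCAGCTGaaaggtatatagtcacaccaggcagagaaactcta
Oas1h (chr5:120861222-120861421, plus strand): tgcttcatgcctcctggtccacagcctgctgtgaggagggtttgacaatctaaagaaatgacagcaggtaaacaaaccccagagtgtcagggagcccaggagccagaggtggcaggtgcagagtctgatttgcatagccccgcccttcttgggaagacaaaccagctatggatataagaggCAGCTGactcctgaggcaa

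E330021D16Rik had the letters 126 and 57 bases before its start, counted from their first base. The upstream sequences of Fbxw28 and Fbxw14 were near copies with 2 matches each, and those of Oog4 and Oas1h had 1 match close to the start, at 41 and 19 bases. The other letters were searched on both strands. TAATTG was found in 10.0% of members and 7.88% of all promoters, TATAAA in 5.0% and 14.3%, and GGGCGG in 50.0% and 51.0%, against 75.3% in kept genes. Members had a median of 11 CG dinucleotides per promoter, where kept genes had 25 and all promoters 15. The 4 motifs were chosen after the files were seen, matches of letters are no evidence of binding, and no test was made.

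Lengths and GC content overlapped widely between members and kept genes and were not tested, and paralogs count as separate genes. A single mRNA was read per gene: a transcript marked as principal in the annotation where such existed, then that with the longest coding sequence. Its length had a median of 2603 bases in members (quartiles 1828 and 3346) and 3566.5 in kept genes (2442 and 4929). The median was 2809 in genes cleared early and 3222 in all genes over the minimum. Median 3′UTR lengths were 813 bases in members and 1301 in kept genes, and median coding lengths 1398 and 1555.5 bases. Genes cleared early had a median 3′UTR of 802 bases. In single members the 3′UTR ranged from 52 bases in Fbxw20 and 59 in Fbxw28 to 2298 in Wdr76 and 3637 in Chdh. GC content of the mRNA had a median of 45% in members (quartiles 42.2% and 47.5%), 46.8% in kept genes (43.0% and 50.8%) and 53.5% in genes cleared early.

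TTTTAT or TTTTAAT, the letters of the cytoplasmic polyadenylation element, stood in the last 100 bases of 20% of members, 25.2% of kept genes, 30.5% of early cleared genes and 24.0% of genes over the minimum. The poly(A) signal AATAAA was found there in 68.9%, 67.5%, 76.8% and 70.3%. TATTTAT, letters of an AU-rich element, was present in the 3′UTR of 22.2% of members, 36.5% of kept genes, 17.9% of early cleared genes and 30.2% of genes over the minimum, groups whose 3′UTR lengths differ. GGACT, the most frequent form of the m6A motif, occurred 0.883 times per kilobase in members, 0.993 in kept genes and 1.12 in genes cleared early, and it was found at least once in 86.7% of members, 94.9% of kept genes and 93.1% of genes over the minimum. These searches read the sense strand of the mRNA.

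IP was then set against input at each stage with edgeR's quasi-likelihood test, at an adjusted p under 0.05 over all genes. The inputs of this test also entered the rule, but the rule used no IP library. At MII the 45 members divided between both directions. IP was above input in 9 members, where 17.7% of all genes tested were above, and below input in 15, where 21.0% were below, and 21 passed in neither direction. Abundant maternal mRNAs were more often below input than this. Among genes over the MII minimum 17.5% were above and 49.8% below, and among kept genes 48.1% were below. The median log2 IP/input was −0.12 in members, −0.35 in genes over the minimum, −0.30 in kept genes and −0.94 in genes cleared early.

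Ooep (chr9:78376109-78378725, minus strand), a subunit of the subcortical maternal complex, was highest in IP. It had 144.9, 122.7 and 144.6 CPM in the MII inputs and 649.3, 633.9 and 526.7 CPM in the MII IPs. At L1C it had 153.7, 143.5 and 176.1 CPM in inputs and 696.5, 576.1 and 580.6 CPM in IPs. All IP libraries lay above all input libraries at both stages, with a log2 IP/input of 1.90 (SE 0.16, adjusted p = 1.6e-08) at MII and 1.67 at L1C.

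After Ooep, the smallest P values for IP above input at MII were those of Aknad1, with log2 IP/input of 1.28 (SE 0.17, adjusted p = 4.4e-06), Wdr76 at 1.22, Glrx at 1.11 and Gm5065 at 0.91. Glrx had 566.2, 470.7 and 530.6 CPM in inputs and 1405.8, 1452.9 and 1131.6 CPM in IPs at MII, without overlap. Gm5065 overlaps Nlrp2, which had 121 CPM at MII, so that reads of Gm5065 are uncertain. Dazl had 336.7, 396.2 and 430.7 CPM in inputs and 731.3, 549.1 and 876.6 in IPs, a log2 IP/input of 0.65 (SE 0.18, adjusted p = 6.2e-03), and 0.93 at L1C.

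Stard13 (chr5:151037510-151233836, minus strand), a RhoGAP that restrains RhoA, was lowest in IP. Its MII inputs held 385.4, 410.6 and 410.3 CPM and its MII IPs 125.0, 127.8 and 122.5 CPM. The L1C inputs held 274.7, 304.3 and 341.3 CPM and the L1C IPs 118.3, 106.6 and 104.9 CPM. The groups were wide apart, with log2 IP/input of −1.92 (SE 0.11, adjusted p = 8.8e-11) at MII and −1.78 at L1C. Chdh followed at −1.81 (SE 0.13, adjusted p = 1.8e-09), from inputs of 77.0, 79.9 and 79.8 CPM and IPs of 24.3, 29.4 and 25.8 CPM. It overlaps Cacna1d, which had 40.4 CPM. Fam110c stood at −1.23, Rraga at −1.06 and Itsn2 at −1.0.

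At L1C 13 members were above input (15.8% of all genes tested were) and 11 below (18.2%), with a median log2 IP/input of −0.01 in members and −0.30 in genes over the minimum. Scaling decided part of this split. With library size alone in place of TMM, the median of all genes rose by 0.20 at MII and by 0.30 at L1C, the MII calls became 12 above and 8 below (60.0% of calls above, against 37.5%), and the L1C calls became 23 above and 6 below (79.3%, against 54.2%). Without the first L1C IP library, 6 members were above input at L1C.

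Both stages placed the members in much the same order. Across the 45 members log2 IP/input at MII and at L1C had a Pearson r of 0.86 and a Spearman rho of 0.82, as a description over genes that share libraries. IP was above input at both stages in 7 members (9.35% of all genes): Glrx, Dazl, Wdr76, Ooep, Gm5065, Tceal8 and Aknad1. It was below at both in 10 (13.4%): Nlrp4f, Rraga, A430033K04Rik, Itsn2, Stard13, Slc35f6, Fam110c, Fyb2, Klhl13 and Chdh. The L1C call was lost without 1 L1C library for Wdr76 (4 of 23 alternatives), Glrx (2) and Aknad1 (1), and with library size alone for Rraga, Nlrp4f and A430033K04Rik. That of Rraga was also lost without L1C IP replicate 2. Calls of Tceal8, Slc35f6, Fyb2 and Klhl13 were not followed singly under the alternatives. No member was called in opposite directions.

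The 4 Fbxw members had log2 IP/input between 0.01 and 0.11 at MII, none of them called, and between 0.38 and 0.53 at L1C, where Fbxw28 and Fbxw14 were above input. The L1C calls of this pair were lost without L1C IP replicate 1 or 2 or L1C input replicate 2 or 3. The 4 Nlrp members lay between −0.59 and −0.31 at MII, with Nlrp4f, Nlrp4a and Nlrp4b below input, and only Nlrp4f of these was below at L1C. With library size alone none of the 3 was below input at MII, and the MII call of Nlrp4b was lost in 9 of 23 alternatives, DESeq2 among them, with adjusted p up to 0.231. E330021D16Rik was below input at MII, with a log2 of −0.56 (SE 0.11, adjusted p = 2.7e-04), from IPs of 3608.6, 2993.8 and 3742.5 CPM, and did not pass at L1C, at −0.17. Oas1e passed at neither stage (−0.12 and −0.17). Its paralog Oas1h was above input at MII, at 0.49 (SE 0.18, adjusted p = 0.035), a call that was lost without MII IP replicate 2 or MII input replicate 2 or 3, and did not pass at L1C, at 0.26. In the lists of functions, the multigene families had 8 genes above and 3 below input of 28 at MII and 13 above and 2 below at L1C. The subcortical maternal complex and Nlrp list had 2 above and 7 below of 14 at MII and 1 above and 6 below at L1C. Of all genes tested 17.7% were above and 21.0% below at MII, and 15.8% and 18.2% at L1C. Among genes over the MII minimum 17.5% were above and 49.8% below at MII, and 16.9% and 46.8% at L1C.

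**Figure D2:**
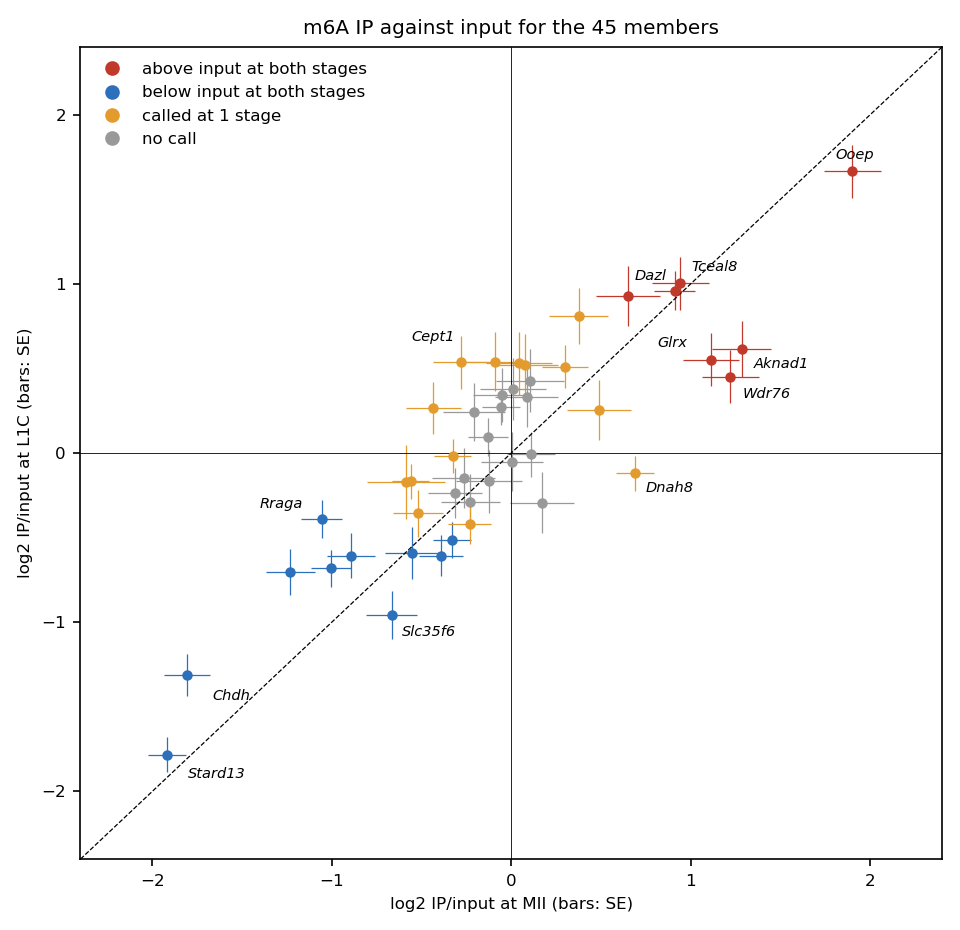
log2 IP/input of the 45 members at MII (x axis) and L1C (y axis) from the edgeR fit, 1 point per gene with bars of 1 SE, colored by call, and the dashed diagonal of equal values. Points follow the diagonal from Stard13 at −1.92 and −1.78 to Ooep at 1.90 and 1.67.

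Enrichment itself differed between MII and L1C in 4 members. The inputs in this difference also entered the rule, which bounded their ratio, so the test is not independent of the choice of members. Enrichment was higher at L1C in 2, where 3.13% of all genes were. Rraga inputs were lower at L1C than at MII without overlap, while its IPs, at 626.2, 538.1 and 636.1 CPM at MII and 690.5, 635.6 and 716.0 CPM at L1C, overlapped, so that log2 IP/input rose by 0.67 (SE 0.16, adjusted p = 0.012). Cept1 had inputs of 130.4, 143.5 and 139.9 CPM at MII and 126.0, 102.9 and 78.5 at L1C. Its IPs were 141.4, 103.3 and 158.1 CPM at MII and 198.1, 189.0 and 163.9 at L1C, and log2 IP/input rose by 0.82 (SE 0.22, adjusted p = 0.028), a call lost in 7 of 22 alternatives that each left out 1 library, with adjusted p up to 0.0767.

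It was lower at L1C in the other two, where 4.21% of all genes were. Wdr76, a WD40 repeat protein, had inputs of 235.0, 240.4 and 273.6 CPM at MII and 382.4, 308.5 and 316.9 at L1C. Its IPs moved down, from 778.7, 534.3 and 747.8 CPM to 624.4, 550.6 and 526.7 CPM with overlap, and log2 IP/input changed by −0.77 (SE 0.22, adjusted p = 0.040), a call lost in 12 of 22 alternatives, library size alone and the replicate block among them, with adjusted p up to 0.115. Dnah8 had inputs of 136.1, 132.5 and 132.1 CPM at MII and 106.2, 112.9 and 127.3 at L1C, and IPs of 260.0, 244.1 and 258.1 CPM at MII and 138.4, 117.9 and 136.6 at L1C, a change of −0.81 (SE 0.15, adjusted p = 0.0028). Dnah8 overlaps 7 other genes, and it was singled out after its values were seen.

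The IP libraries gave the stage changes again from RNA of the same batches, so they are no independent measure of the loss. All 45 members were lower in L2C IPs than in MII IPs, where 37.4% of all genes tested were, with a median log2 of −4.50. The median was −0.47 in kept genes and −1.53 in genes over the minimum. The call of Dnah8 rests on its listed zeros at L2C. Without it, the range over the other members was −6.69 (Oas1e) to −3.48 (Cept1). Members summed to 2.44% to 2.60% of the MII IPs, 2.54% to 2.98% of the L1C IPs and 0.125% to 0.130% of the L2C IPs.

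Between MII and L1C the IP levels of most members did not pass the test. The rule held the inputs of these stages within limits and the IPs came from the same batches, so this is partly built in. Kept genes, held to the same limits, had 11.5% higher and 34.8% lower. IP levels of members were higher in 4 at L1C (30.2% of all genes): Oog4 by 0.75 on the log2 scale, C87499 by 0.55, the Hsp40 co-chaperone Dnajb4 by 0.53 and Chdh by 0.42. The call of Chdh was lost without MII IP replicate 1, with an adjusted p from edgeR of 0.0527. IP levels were lower in 13 members (21.5% of all genes), most of all Glrx at −1.19 and Dnah8 at −1.16. Oog4 IPs held 705.6, 642.6 and 779.9 CPM at MII and 1498.4, 1472.3 and 1155.8 at L1C, without overlap, while its inputs overlapped between these stages. With library size alone 14 members were higher and 7 lower (66.7% of calls higher, against 23.5%).

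At L2C the inputs entered the rule, which chose them to be low, so a raised IP/input is partly built in and these values are a description. The median log2 IP/input was 0.44 in members, −0.03 in genes at 1/16 to 1/8 of MII, −0.14 in kept genes and 0.09 in all genes, with 33 members above 0 and 11 below, over a range of −1.22 to 1.65. Stard13 remained low, at 7.9, 7.1 and 8.9 CPM in IPs and 16.2, 16.6 and 14.6 CPM in inputs. Ooep remained high, at 17.5, 30.6 and 20.4 CPM in IPs and 5.7, 6.7 and 5.7 CPM in inputs.

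In the second experiment Ythdc1 itself was measured first. It had 498, 521 and 493 CPM in KD embryos and 1114, 1138 and 1048 CPM in NC embryos, or 45.8% of NC, a log2 change of −1.0 (SE 0.06, adjusted p = 1.3e-10). CPM here are scaled to the counts of the 25739 genes in the merged exon count table, which ends on chromosome 7, and the libraries held 3276715 to 5463868 counts in it. It held 26 of the 45 members. The same counts for the whole annotation were used for 5 libraries, 2 KD and 3 NC, in which 44 members had counts and Hsd3b7, an enzyme of bile acid synthesis, was at 0 in each library.

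Most members were lower still in KD embryos. Of the 26 members in the table, 18 were lower, where 37.4% of all genes tested were, 1 was higher, where 33.5% were, and 7 did not pass. The median log2 change was −0.86 in members, −0.06 in all genes, −0.12 in genes over the minimum and 0.00 in kept genes. Over the whole annotation 30 of 44 were lower (36.4% of all genes) and 2 higher (30.5%), with a median of −0.74. Summed members were at 1150 to 1200 CPM of the table in KD and 1810 to 1920 CPM in NC.

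Oas1h (chr5:120861421-120873506, plus strand) was the member with the smallest P value. It had 15.7, 13.1 and 13.2 CPM in KD and 76.5, 76.4 and 72.6 CPM in NC, 18.7% of NC, a log2 change of −2.30 (SE 0.13, adjusted p = 5.3e-11). Oog4 had 19.6, 19.3 and 19.3 CPM in KD and 90.8, 90.2 and 80.3 CPM in NC, a log2 change of −2.05 (SE 0.12, adjusted p = 8.2e-11). A430033K04Rik had 21.6, 23.9 and 22.1 CPM in KD and 74.1, 78.1 and 79.0 CPM in NC, a log2 change of −1.65 (SE 0.12, adjusted p = 8.2e-10). KD and NC libraries were far apart for all 3.

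Pla2g4c, a phospholipase A2, went from 243.4, 260.6 and 243.8 CPM in NC to 124.3, 119.7 and 116.9 in KD, a log2 change of −0.93. Zc3h6, a CCCH zinc finger protein, went from 139.5, 152.0 and 155.3 to 76.3, 75.1 and 69.3 CPM, a log2 change of −0.89. It overlaps Gm14027, which had 68.4 CPM at MII. The 2 most abundant members did not pass. E330021D16Rik had 318.3, 298.9 and 304.1 CPM in KD and 326.0, 302.3 and 304.6 in NC, a log2 change of 0.10 with overlapping groups, and Oas1e, paralog of Oas1h, had 60.7 ± 2.65 and 65.6 ± 2.43 CPM (SD, n = 3), a log2 change of 0.01. Their CPM means were lower in KD and their fitted values above 0 because of TMM scaling: with library size alone the log2 changes were −0.02 and −0.11.

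Among members outside the table, Neil3 and Esr2, singled out after their values were seen, had the largest falls. Neil3, a DNA glycosylase, had 0.80 and 0.83 CPM in the 2 KD libraries and 10.6, 12.3 and 11.4 CPM in NC, a log2 change of −3.72 (SE 0.29, adjusted p = 3.2e-08), from 9 and 8 counts in KD. Esr2, the estrogen receptor beta, had 1.51 and 1.25 CPM in KD and 9.03, 7.82 and 8.39 CPM in NC, a log2 change of −2.52. Ooep rose. It had 33.0 and 40.5 CPM in KD and 15.9, 15.3 and 18.4 CPM in NC, a log2 change of 1.23 (SE 0.13, adjusted p = 7.5e-07), and Zup1, a deubiquitinase, was the other higher member at 1.51. In the table itself Fyb2, also singled out, had the largest fall, from 19, 15.1 and 19.5 CPM in NC to 1.6, 1.6 and 2.8 CPM in KD, a log2 change of −2.98.

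Over the whole annotation 36.4% of all genes tested were lower in KD and 30.5% higher. Of the families, 3 of 4 Fbxw members were lower, with Fbxw28 at −0.67 and Fbxw22, which did not pass, at −0.22. Of the 4 Nlrp members 3 were lower, with Nlrp4f at −0.65. Dazl did not pass, at −0.15. Over the whole annotation 25 of the 28 genes of the multigene family list, members included, were lower and 0 higher, with a median log2 of −0.64. Of all genes over the MII minimum 39.9% were lower and 28.6% higher. Lists without members were also lower in part: zona and secreted factors had 11 of 12 lower and 1 higher, with a median of −1.20, whereas M-phase genes had 6 of 22 lower and 11 higher. The subcortical maternal complex and Nlrp list had 10 of 14 lower and 1 higher, and poly(A) and translation control 1 of 9 lower and 3 higher. The higher call of Stard13 in the table (0.49, adjusted p = 0.046, from 13.7, 14.8 and 14.9 CPM in KD and 11.2, 12.0 and 10.4 in NC) was lost under every alternative tried, with adjusted p up to 0.125.

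**Figure D3:**
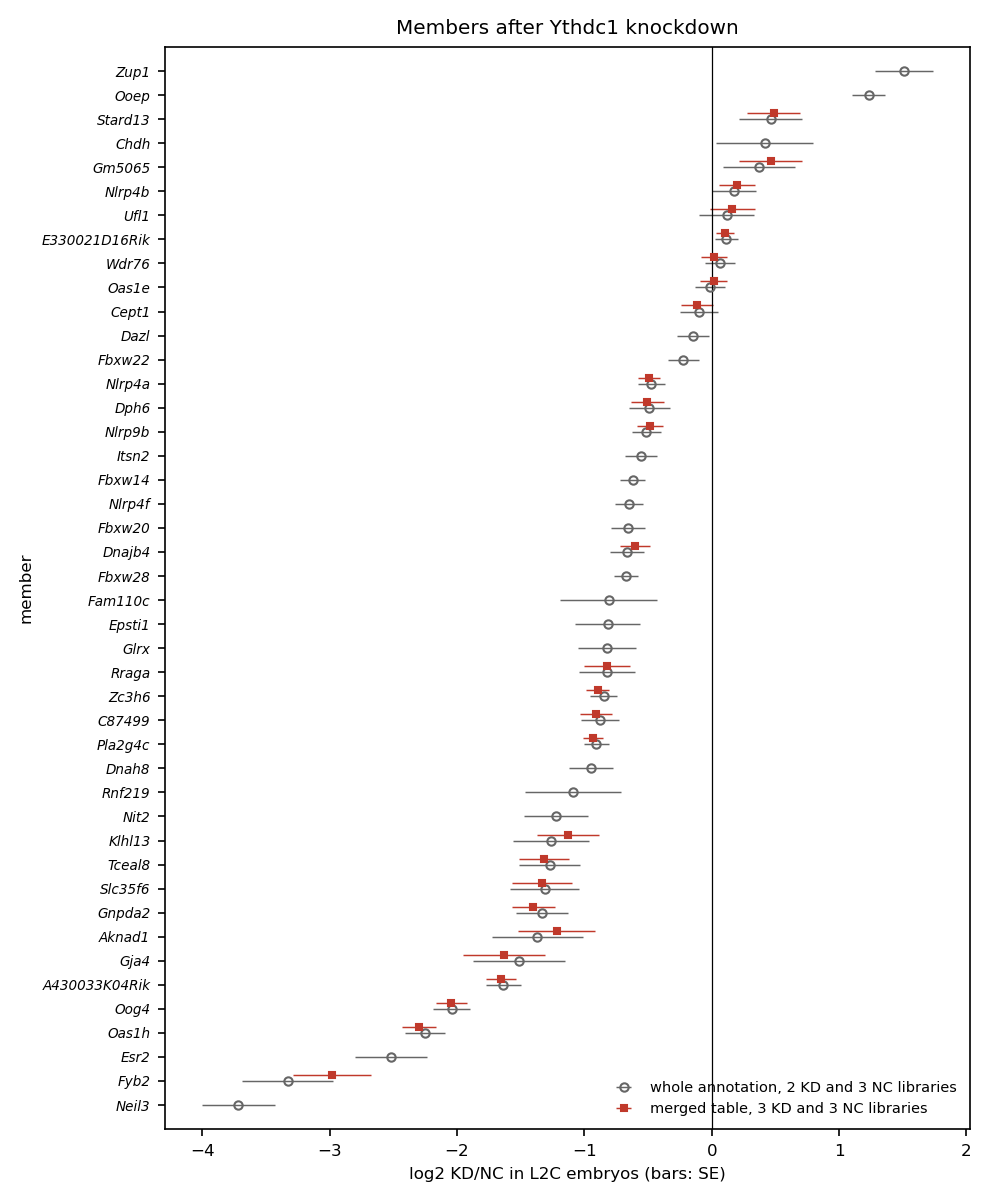
log2 change from NC to KD of the members in L2C embryos with bars of 1 SE, 1 row per gene, from the edgeR fits of the merged table (squares, 26 members) and of the whole annotation (circles, 44 members). Most members lie left of 0, down to −3.72 for Neil3, and Ooep and Zup1 lie to the right at 1.23 and 1.51.

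Calls in KD were also counted by how far an mRNA had been cleared at L2C. Over the whole annotation 68.2% of members tested were lower and 4.55% higher. Among genes level to L1C whose L2C level was between 1/16 and 1/8 of MII, 59.8% were lower and 13.6% higher. The shares were 50.7% and 17.4% between 1/8 and 1/4, 48.8% and 19.6% between 1/4 and 1/2, and 35.2% and 34.5% in kept genes. Genes cleared early had 40.4% lower and 32.6% higher. In the merged table the lower shares were 69.2% in members, then 57.1%, 49.0% and 50.7% in the bins, and 38.8% in kept genes, so that the order of the middle bins differed between the fits. These bins use the input levels of the first experiment and no library of the second, and the order of the shares was not tested. The change in KD did not follow IP/input at MII across members, with r of −0.10 over 26 and 0.01 over 44 members, as a description over genes that share libraries.

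**Figure D4:**
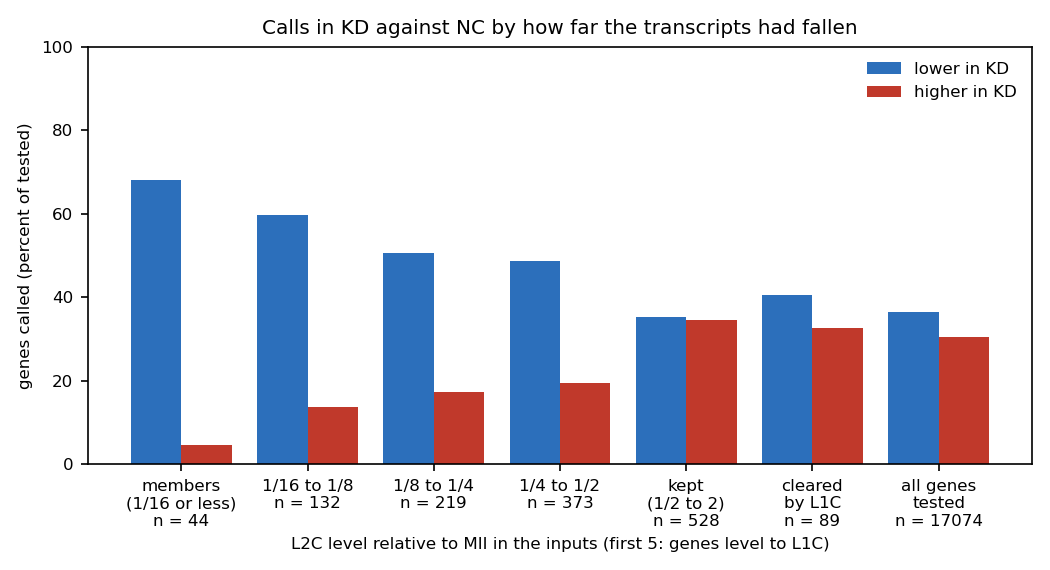
Percent of genes called lower and higher in KD than in NC over the whole annotation, for members, genes level to L1C in bins of their L2C level relative to MII, kept genes, genes cleared early and all genes tested. The share lower is 68.2% in members and 35.2% in kept genes, and the share higher is 4.55% and 34.5%.

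The summed late 2-cell markers were lower in KD and the oocyte marker sums overlapped. The oocyte sum does not speak for single genes. Ooep, 1 of its 8 genes, was higher in KD. Zp3, Gdf9 and Bmp15 are also in the zona and secreted list, where 11 of 12 genes were lower and 1 higher. The summed level of 9 late 2-cell transcripts was 1173 to 1199 CPM in NC and 327 to 363 in KD, none of them at 0. The summed level of 8 oocyte markers was 13800 to 15541 CPM in NC and 14791 to 15276 in KD, none at 0. Cumulus markers summed to 28.8 to 35.3 CPM in NC, with 6 of 10 at 0, and 36.8 to 40.7 CPM in KD, with 3 of 10 at 0. Sperm markers were at 2.18 to 4.18 CPM in NC, with 1 of 4 at 0, and 0 to 0.104 in KD, with 3 of 4 at 0. These sums are over the whole annotation in 5 libraries. In the L2C inputs the 8 oocyte markers summed to 1990 to 2087 CPM and the members to 749 to 903 CPM. The members summed to 1260 to 1370 CPM in NC. Inputs were counted over whole genes, introns included, and NC and KD on exons, so levels were not compared between the experiments. The part of the marker differences between KD and NC in the members' changes was not tested.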

How the data were processed

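The authors deposited kallisto estimated counts per gene for 18 SLIM-seq libraries, with 1 target per gene that spans the whole gene on GRCm38, introns included, and TPM values from the same runs. For the 6 KD and NC libraries trimming was done with Trimmomatic and alignment with HISAT2, and the authors deposited raw featureCounts 2.0.1 counts on exons (Ensembl release 99) without a strand option, so that overlapping genes on opposite strands share reads. The merged count table holds 25739 genes, and KD replicate 3 was used in that table only. Versions of kallisto are not given in the sources used here. No column of the authors' own comparisons was used.

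Members were found on CPM from the estimated counts. Estimated counts were rounded and fitted with edgeR 4.0.16 (R 4.3.3) by the quasi-likelihood test with TMM scaling and edgeR's filter on low counts: the 18 libraries in 1 model with a term for each of the 6 groups, and the KD experiment in another. P-values were adjusted over all genes tested by Benjamini-Hochberg, with calls under 0.05. Members, gene lists and motifs were chosen with earlier results of these data known. Alternatives were DESeq2 1.42.0, library size alone, no filter, fewer libraries, other limits of the rule, the study's KD rule (unadjusted p under 0.05 and a log2 change over 1 in size), and each library left out.

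Genes named were the 12 most abundant members, the 5 with the smallest P in each direction for IP at MII, 3 on each side of the 1/16 limit, up to 5 per direction in KD, members of the function lists, and Ythdc1. Others named are family members, genes of a count given in full, or singled out after their values were seen (Dnah8, Neil3, Esr2, Fyb2, Zup1 and Hsd3b7, and paralogs outside the rule). The fits were tested on simulated data: at a log2 change of 1 the MII comparison of IP with input found 54 of 100 changed genes and the KD comparison 83 of 100, with 6 and 11 false calls. The changed genes were drawn from all genes over a low count and not at the members' levels, so these rates do not describe the members. Figures and tables were made with Python 3.11.15, pandas 2.3.3, numpy 2.4.6 and matplotlib 3.10.9. Lengths and motifs of mRNAs came from GENCODE M21 transcripts.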

Additional observations from a re-analysis of the deposited data

Results flagged for a closer look

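In 4 members IP enrichment differed between MII oocytes and L1C embryos by the test of the difference itself, 2 in each direction (4.44% of members), where 3.13% of all genes tested were higher at L1C and 4.21% lower, so the count is near the background. The log2 IP/input at L1C minus that at MII was 0.67 for Rraga, 0.82 for Cept1, −0.77 for Wdr76 and −0.81 for Dnah8. The inputs in this difference also entered the rule, which bounded their ratio. The call of Wdr76 was lost in 12 of 22 alternatives, with adjusted p from edgeR up to 0.115, and that of Cept1 in 7 of 22, each of which left out 1 library, with adjusted p up to 0.0767. The calls of Rraga and Dnah8 held in all alternatives tried.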

How the results depend on the processing

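No value of a named member reversed its direction past the threshold. A limit of 1/8 gave 177 members and a limit of 1/32 gave 8. Other rules gave 49 to 55 members, and 38 of the 49 found with TMM scaling of the inputs were shared. With library size alone, IP was below input at MII in 8 members, above at L1C in 23 and below at L1C in 6, enrichment was lower at L1C in 1, L1C IPs were higher in 14 and lower in 7, and 0 were higher in KD. DESeq2 and the fit without a filter each gave 4 members with higher enrichment at L1C and 0 higher in KD. The study's KD rule gave 0 higher and 10 lower, and the whole annotation 2 higher and 30 lower.

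Leaving out the inputs of each replicate number in turn gave 45 to 49 members. Leaving out each library in turn gave 8 to 10 above and 11 to 15 below input at MII, 6 to 18 above and 10 to 12 below at L1C, 1 to 4 with higher and 1 to 3 with lower enrichment at L1C, 45 to 45 lower in L2C IPs, 3 to 5 higher and 10 to 15 lower in L1C IPs, 0 to 0 higher and 18 to 18 lower in KD. The lowest L1C count came without L1C IP replicate 1, and 8 were above without L1C input replicate 2 or 3.

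Libraries with the same replicate number did not deviate together: over 18 pairs of libraries the correlations lay between −0.15 and 0.10. With the replicate number as a block, 1 member had lower enrichment at L1C, 0 were higher in KD and 18 lower, and IP was above input in 9 members at MII and 13 at L1C. The cause of the changes under other settings was not tested. What depth adds for members with low L2C counts was not tested.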
